A study of Homo sapiens with 6 samples.

Results

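The amino acid transporters described here are 10 genes, SLC3A2, SLC7A5, SLC7A11, SLC43A1, SLC7A1, SLC1A4, SLC1A5, SLC38A1, SLC38A2 and SLC6A9, of 63241 genes with an expected count in each library. They were listed by symbol, with earlier results of these libraries known. RNA-seq had been run on MDA-MB-231 cells, a human triple-negative breast cancer line with its genotype labelled WT, cultured in DMEM with fetal calf serum. The cells received either 0.1% DMSO, the vehicle, or 5 μM nitidine chloride (NCD), a benzophenanthridine alkaloid of plant origin, for 24 h. There were 3 libraries in each group. The comparison asks how NCD changes the transcriptome of these cells, and it rests on 1 cell line, 1 dose and 1 time. The labels do not say whether the libraries came from separate cultures, so p-values measure the spread between these libraries only. For libraries NCD 2 and NCD 3 the description line names another cell line number than the cell line field, which reads MDA-MB-231 in all 6.

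Amino acids cross the plasma membrane on carriers of several solute carrier families. SLC3A2 (4F2hc, CD98) is a glycoprotein heavy chain that carries no amino acid itself. It binds one of several light chains, among them SLC7A5 (LAT1), which takes up leucine and other large neutral amino acids, and SLC7A11 (xCT), which imports cystine in exchange for glutamate and so feeds glutathione synthesis. SLC1A5 (ASCT2) and SLC1A4 (ASCT1) exchange neutral amino acids such as serine and alanine, and SLC1A5 also exchanges glutamine. SLC38A1 and SLC38A2 take up glutamine and other small neutral amino acids with sodium. SLC7A1 (CAT1) imports arginine and lysine, SLC6A9 (GLYT1) imports glycine, and SLC43A1 (LAT3) carries branched-chain amino acids. Many of these genes are known targets of ATF4, the transcription factor translated when eIF2 alpha is phosphorylated, and SLC7A11 is also a known target of NFE2L2 (NRF2).

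Library totals ranged from 18223594 to 21629653 expected counts, and the members had from 56 to 16671 counts per library, so all 10 passed the low-count filter. Values are given as CPM, counts per 1000000 counts of a library size scaled by edgeR's TMM method. The line's markers were as its label says, with VIM at 51657, CD44 at 5039 and EGFR at 504 counts or more in every library and at most 7 counts for ESR1, 3 for PGR and 4 for CDH1. CD44 and EGFR were lower with NCD, CD44 at 16027 to 17633 counts with DMSO and 5039 to 6460 with NCD. EGFR had 2675 to 3241 counts with DMSO and 504 to 646 with NCD. The leukocyte genes PTPRC and CD3E had at most 1 count. COL1A1, a marker of fibroblasts, had 41 to 65 counts with DMSO and 246 to 317 with NCD, and its part in the results was not tested. Among replicates, the chi-square of the counts per degree of freedom was 2.05 between NCD 1 and NCD 2 and 4.17 between DMSO 1 and DMSO 3, and from 7.89 to 15.4 in the pairs with DMSO 2 or NCD 3. These libraries stand somewhat apart from the rest of their groups, and results are also given without them where they matter.

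NCD treatment was accompanied by a split response among the transporters. SLC6A9, SLC1A4, SLC3A2 and SLC1A5 rose, by 7.04-, 6.66-, 3.04- and 2.06-fold, and SLC7A1 fell to 0.498 of its DMSO level. The cystine carrier SLC7A11 was lower by a smaller amount, at 0.593 of its DMSO level. A gene was called at a Benjamini-Hochberg adjusted p below 0.05 over all 15295 genes tested by edgeR's quasi-likelihood test together with a log2 fold change beyond 1 or -1. So defined, 4 members were higher and 1 was lower, against 13.5% of all tested genes called higher, 17.4% called lower and 31.0% called in either direction. Without the fold threshold 6 members were higher and 3 lower, against 35.3% and 34.1% of all genes, and only SLC38A2 did not pass. In 9 of the 10 members the DMSO and NCD libraries did not overlap, as in 72.6% of all tested genes. The median log2 fold change was 0.70 over the members and 0.04 over all tested genes.

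**Figure D1:**
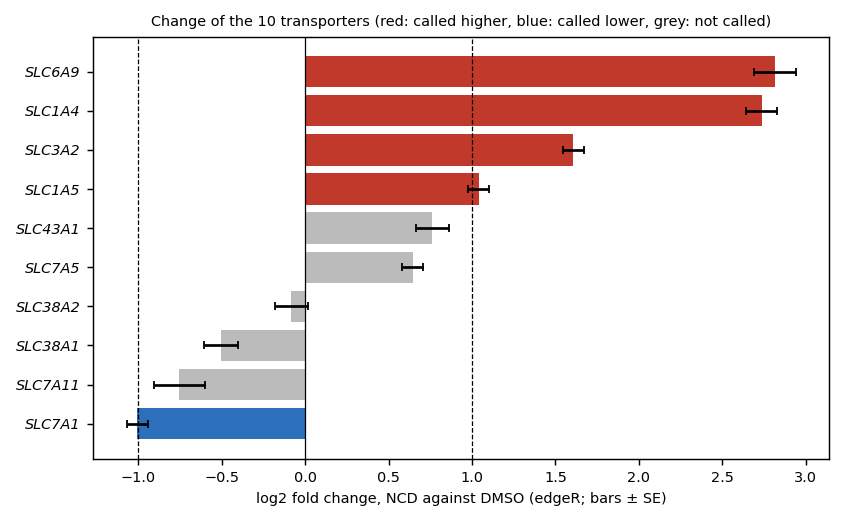
Horizontal bars give the log2 fold change of each transporter, NCD against DMSO, with its standard error from edgeR, and dashed lines mark a change of 1 in either direction. SLC6A9 and SLC1A4 lie above 2.7, while SLC1A5 at 1.04 and SLC7A1 at -1.01 lie just past the lines.

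The heavy chain SLC3A2 (ENSG00000168003) lies on chromosome 11, plus strand, from 62856102 to 62888875 (GENCODE 29 on GRCh38, as for all positions of genes here). It had 234, 233 and 231 CPM with DMSO and 728, 736 and 660.2 CPM with NCD. Every NCD library lay far above every DMSO library, and the DMSO libraries differed by little, with a coefficient of variation of 0.587%. On the log2 scale the change was 1.61 (SE, its standard error, 0.06, edgeR adjusted p = 7.28e-08), at percentile 94.4 of all tested genes. Its light chain SLC7A5 (ENSG00000103257; chromosome 16, 87830023 to 87869488, minus strand) had 309, 325 and 320.2 CPM with DMSO and 521, 508 and 463 CPM with NCD. The groups did not overlap, but the change was smaller than that of the heavy chain, at a log2 fold change of 0.64 (SE 0.06, edgeR adjusted p = 1.96e-05), and it was not called. SLC7A5 has pseudogene copies that could share its reads, SLC7A5P1 and SLC7A5P2, and these were assigned at most 1.09 counts in any library.

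SLC7A11 (ENSG00000151012; chromosome 4, 138164097 to 138242349, minus strand), the cystine carrier, had 157, 221 and 185 CPM with DMSO and 97.7, 98.9 and 137 CPM with NCD. All 3 NCD libraries were below the lowest DMSO library, but NCD 3 came close to it. The log2 fold change was -0.75 (SE 0.16, edgeR adjusted p = 0.00207), short of the fold threshold, and it ranged from -0.95 to -0.63 when single libraries were left out. SLC7A11 had the widest spread of the 10 genes, with coefficients of variation of 17.0% in DMSO and 20.3% in NCD. SLC43A1 (ENSG00000149150; chromosome 11, 57484534 to 57515786, minus strand), a carrier of branched-chain amino acids that does not use the heavy chain, had 6.87, 7.36 and 7.35 CPM with DMSO and 12.5, 12.4 and 11.8 CPM with NCD. It was higher in every NCD library, with a log2 fold change of 0.76 (SE 0.10, edgeR adjusted p = 0.000123), and it was not called.

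The cationic carrier SLC7A1 (ENSG00000139514; chromosome 13, 29509410 to 29595688, minus strand) was the one member called lower. It had 240.0, 265 and 244 CPM with DMSO and 125, 119 and 129 CPM with NCD, with no overlap between the groups. Its log2 fold change came to -1.01 (SE 0.06, edgeR adjusted p = 1.03e-06). This lies so close to the fold threshold that it was -0.97 without DMSO 2 and -0.975 without NCD 2, and SLC7A1 was then not called. Scaling by library totals, which moved the median log2 fold change of all genes by 0.20, left it at -0.81.

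Both SLC1 exchangers rose. SLC1A4 (ENSG00000115902; chromosome 2, 64988477 to 65023865, plus strand) had 7.89, 9.39 and 7.95 CPM with DMSO and 57.2, 56.9 and 54.0 CPM with NCD. The lowest NCD library was thus several times the highest DMSO library, and the log2 fold change was 2.74 (SE 0.09, edgeR adjusted p = 3.47e-08), at percentile 98.8 of all tested genes. SLC1A5 (ENSG00000105281; chromosome 19, 46774883 to 46788594, minus strand) started from a higher level, with 190.2, 187 and 192 CPM with DMSO and 406, 402 and 363 CPM with NCD. Again the groups did not overlap, and the log2 fold change was 1.04 (SE 0.06, edgeR adjusted p = 8.01e-07). It was 0.99 without NCD 1, which ended the call. SLC1A5 overlaps AC008622.2 on the opposite strand, which had up to 176 counts in a library, and whether the counting used strand is not given in the sources used here.

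The sodium-coupled glutamine carriers SLC38A1 and SLC38A2 are neighbours on chromosome 12 (46183063 to 46270017 for SLC38A1, ENSG00000111371, and 46358189 to 46372867 for SLC38A2, ENSG00000134294, both on the minus strand) and neither was called. SLC38A1 had 446, 515 and 462 CPM with DMSO and 311, 303 and 388 CPM with NCD. It was lower in all 3 NCD libraries, with a log2 fold change of -0.51 (SE 0.10, edgeR adjusted p = 0.00179). The change was -0.308 with library totals (edgeR adjusted p = 0.0371). With ribosomal protein genes as reference it was -0.52 (edgeR adjusted p = 0.0524), past the threshold of 0.05 no longer. SLC38A2 had 353, 406 and 374 CPM with DMSO and 330.3, 328 and 412 CPM with NCD. NCD 3 held the highest SLC38A2 level of all 6 libraries and the other NCD libraries the lowest, so the groups overlapped. The log2 fold change was -0.08 (SE 0.10, edgeR adjusted p = 0.472), and its sign turned to 0.12 with library totals. Without NCD 3 it was -0.216 (edgeR adjusted p = 0.0233), and without both DMSO 2 and NCD 3 it was -0.151 (edgeR adjusted p = 0.0146). The result for SLC38A2 thus depended on NCD 3.

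The glycine carrier SLC6A9 (ENSG00000196517; chromosome 1, 43991500 to 44031467, minus strand) was the least abundant member before treatment and had the highest log2 fold change of the 10. With DMSO its libraries had 58, 73 and 56 counts, and with NCD 610.3, 483 and 508. In CPM this is a mean of 3.57 ± 0.534 with DMSO and 25.1 ± 1.49 with NCD (SD, n = 3), far apart in every library. The log2 fold change was 2.82 (SE 0.13, edgeR adjusted p = 1.43e-07), at percentile 98.9 of all tested genes. CCDC24 overlaps SLC6A9 on the opposite strand and had up to 117 counts in a library.

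**Figure D2:**
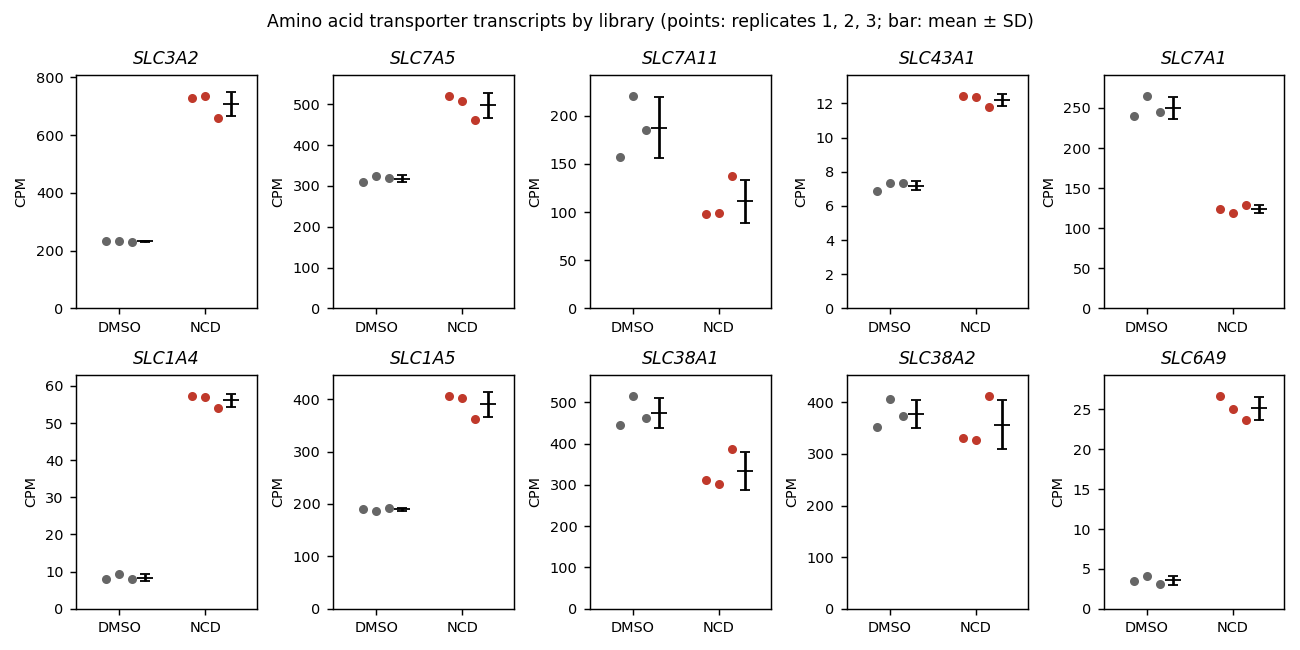
Each panel plots the CPM of one transporter in the DMSO (grey) and NCD (red) libraries, replicates 1 to 3 from left to right, with the mean and SD beside them and the axis starting at 0. The groups are apart in every panel except that of SLC38A2, and the NCD 3 point is the closest to the DMSO points in most panels.

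The NCD libraries did not all carry the same amount of change. In NCD 3, the 6 members with higher expression after NCD were each at their lowest among the NCD libraries, and the other 4, SLC7A11, SLC7A1, SLC38A1 and SLC38A2, were each at their highest. Among the DMSO libraries, DMSO 2 held the highest value of 8 of the 10 members. Without DMSO 2 and NCD 3 the same number of members, 4, was called higher and 0 were called lower, SLC7A1 then being at -0.996. What sets these libraries apart was not tested.

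To compare levels between genes, CPM were divided by the length of the principal transcript in kb. With DMSO the order was SLC3A2 (107.7 ± 0.632 CPM per kb; SD, n = 3), SLC38A2 (77.3 ± 5.51), SLC7A5 (70.1 ± 1.85), SLC1A5 (65.8 ± 0.904), SLC38A1 (58.8 ± 4.51), SLC7A1 (34.0 ± 1.83), SLC7A11 (19.4 ± 3.30), SLC43A1 (2.77 ± 0.107), SLC1A4 (1.84 ± 0.186) and SLC6A9 (1.14 ± 0.170). The ranges of neighbours in this order did not overlap. With NCD, SLC3A2 again led at 328 ± 19.3 CPM per kb (SD, n = 3), SLC1A5 came next at 135 ± 8.28, and SLC38A2 dropped to the fourth place at 73.0 ± 9.81. SLC1A4, at 12.3 ± 0.387, then reached the level of SLC7A11 at 11.5 ± 2.34, and the ranges of these genes overlapped. SLC6A9, at 8.02 ± 0.477, passed SLC43A1, which came last at 4.70 ± 0.137. These orders depend on the transcript taken for the length.

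The summed level of the 10 members was 439 ± 16.4 CPM per kb (SD, n = 3) with DMSO and 741 ± 16.6 with NCD, 1.69 times as high, and higher in 3 of 3 NCD libraries (exact two-sided permutation test, p = 0.1, the smallest p that 3 against 3 libraries allow). Most of this gain was SLC3A2. It made up 24.6% ± 0.938 of the sum with DMSO and 44.2% ± 1.66 with NCD (SD, n = 3). Shares are parts of a whole, so a larger share of SLC3A2 lowers those of others, and the 10 shares are not separate results. The glutamine carriers took smaller shares, with SLC38A1 at 13.4% ± 0.527 with DMSO and 5.60% ± 0.916 with NCD, and SLC38A2 at 17.6% ± 0.594 and 9.88% ± 1.56. The level of SLC38A2 itself was 77.3 CPM per kb with DMSO and 73.0 with NCD, and the groups overlapped. That of SLC7A5, whose share fell too, rose from 70.1 to 109.6 CPM per kb. SLC7A11 went from 4.42% ± 0.585 to 1.56% ± 0.355 and SLC7A1 from 7.75% ± 0.141 to 2.29% ± 0.139. SLC1A4 went from 0.420% ± 0.0275 to 1.66% ± 0.0152 and SLC6A9 from 0.259% ± 0.0322 to 1.08% ± 0.0445. For 9 of the 10 shares the groups did not overlap (exact two-sided permutation test over libraries, p = 0.1, adjusted p = 0.111 over the 10 shares), a p that 3 against 3 libraries cannot bring below the threshold. The exception was SLC43A1, at 0.631% ± 0.0156 and 0.634% ± 0.00439 (exact p = 0.8). SLC7A5 was at 16.0% ± 0.254 and 14.8% ± 0.588, a fall of 1.19 percentage points that turned into a gain of 1.01 points when the union of annotated exons was taken as the length. The size of other shares, and the summed level, depended on the length too. SLC3A2 gained 15.7 points with counts not divided by length and 14.2 with the exon union, in place of 19.7. With such counts SLC38A1 changed by -10.4 points in place of -7.78 and SLC7A1 by -7.44 in place of -5.46. With counts not divided by length SLC7A11 changed by -4.86 points in place of -2.85 and SLC38A2 by -4.80 in place of -7.72, SLC1A5 gained 5.65 in place of 3.26, and SLC43A1 gained 0.116 in place of 0.0036.

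The heavy chain rose more than its partners together. The 6 light chains that pair with SLC3A2 (SLC7A5, SLC7A6, SLC7A7, SLC7A8, SLC7A10 and SLC7A11) summed to 94.1, 106 and 101 CPM per kb with DMSO and 133, 131 and 125 with NCD. Light chain transcripts per SLC3A2 transcript, on this per-length scale, were 0.870, 0.985 and 0.940 with DMSO and 0.395, 0.386 and 0.410 with NCD. The level of this ratio depends on the lengths taken. SLC3A2 was taken at 2161 bases, while the union of its annotated exons is 5178, against 4537 and 4745 for SLC7A5. A longer SLC3A2 length raises the ratio in both groups, so its level does not show which chain was in excess. The ratio was lower in every NCD library, and its log2 changed by -1.23 (exact two-sided permutation test, p = 0.1, the smallest p allowed). This ratio within a library does not depend on the scaling of libraries. Taking only SLC7A5 and SLC7A11 as light chains gave -1.17. The make-up of the light chains shifted as well. SLC7A5 supplied 70.0% ± 2.43 of their sum with DMSO and 84.3% ± 2.56 with NCD, SLC7A11 19.3% ± 2.13 and 8.92% ± 2.11, and SLC7A6 (y+LAT2), an exchanger of cationic and neutral amino acids, 10.5% ± 0.246 and 6.56% ± 0.512 (SD, n = 3; exact permutation p = 0.1 for each of the 3). SLC7A7 gave under 0.3% in every library, SLC7A8 had at most 2 counts, and SLC7A10 had 0 counts in every library, which allows up to 3.

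**Figure D3:**
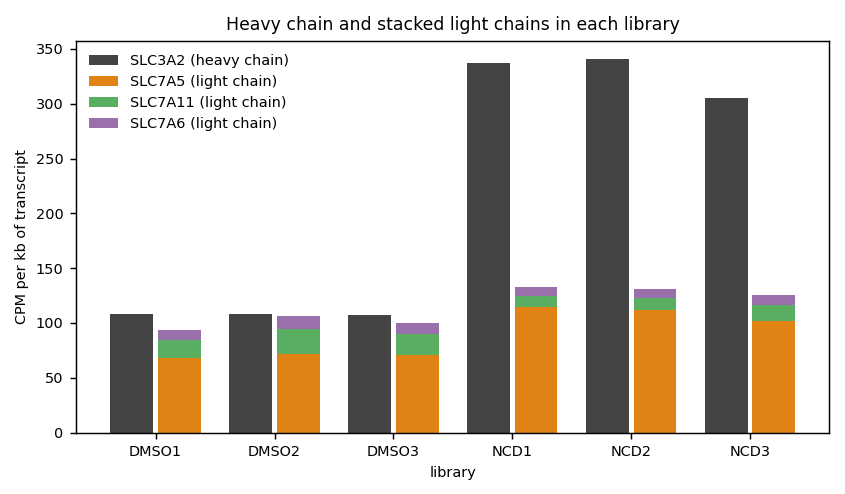
For each library the grey bar gives SLC3A2 and the stacked bar the light chains SLC7A5, SLC7A11 and SLC7A6, in CPM per kb of transcript; SLC7A7, SLC7A8 and SLC7A10 are too low to be seen and are not drawn. The stack reaches 0.870 to 0.985 of the heavy chain with DMSO and 0.386 to 0.410 of it with NCD. These fractions depend on the transcript taken for the length.

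The members differ in genomic span, which the choice of genes did not use. The 3 members that span at least 78 kb, SLC7A11 at 78.3 kb, SLC7A1 at 86.3 kb and SLC38A1 at 87.0 kb, were the 3 with lower expression after NCD at an adjusted p below 0.05 from edgeR. Of the 7 that span at most 40 kb, 6 were higher and SLC38A2, at 14.7 kb, was not past the threshold. Over all tested genes the median log2 fold change was -0.35 in the decile from 58.9 to 89.7 kb, where the 3 long members lie, 0.11 in the decile that ends at 41.2 kb, where SLC3A2, SLC7A5, SLC43A1, SLC1A4 and SLC6A9 lie, and 0.43 in the one from 13.2 to 20.1 kb, where SLC1A5 and SLC38A2 lie. Each of the 3 long members was below the median of its decile, and SLC6A9, SLC1A4, SLC3A2, SLC43A1, SLC7A5 and SLC1A5 were above theirs. The short member SLC38A2, at -0.08, was below the median of its decile, 0.43. The part of gene span in these changes was not tested.

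**Figure D4:**
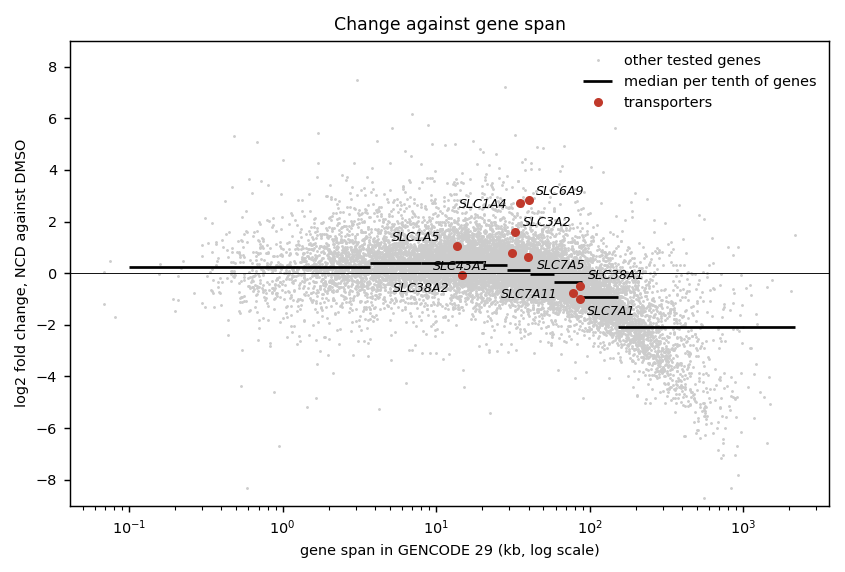
Grey points give the log2 fold change of all tested genes in GENCODE release 29 against gene span in kb on a log axis, black lines the median of each decile of span, and red points the 10 transporters. The 3 longest transporters sit below 0 with their decile, and SLC6A9, SLC1A4 and SLC3A2 stand above the medians of genes of like span.

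Promoter windows were searched for the element that ATF4 and C/EBP proteins are known to bind, since many members are textbook ATF4 targets. RefSeq windows on GRCh38.p14, from 250 bases before to 50 bases after an annotated start, were at hand for 9 of the 10 members, 16 windows in all. SLC7A11 had no window, so its promoter was not searched for any of the motifs below. The core TGATGNAA occurred on either strand in 5 of these windows, in SLC1A4, SLC3A2, SLC1A5, SLC7A1 and SLC38A1, against 3.62% of 35116 windows of the same length over all genes. The 5 windows are shown because they hold members that rose (SLC1A4, SLC3A2, SLC1A5) beside one that fell (SLC7A1) and one that was not called (SLC38A1). Capitals mark the match, as it reads on the gene's strand.
SLC1A4, chr2:64989149-64989448, plus strand: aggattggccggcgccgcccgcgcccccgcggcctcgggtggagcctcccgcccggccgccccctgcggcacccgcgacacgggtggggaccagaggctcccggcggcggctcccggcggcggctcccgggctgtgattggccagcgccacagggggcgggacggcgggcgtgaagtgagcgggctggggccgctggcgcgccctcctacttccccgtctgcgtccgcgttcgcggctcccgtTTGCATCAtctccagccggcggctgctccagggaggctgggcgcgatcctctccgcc
SLC3A2, chr11:62881449-62881748, plus strand: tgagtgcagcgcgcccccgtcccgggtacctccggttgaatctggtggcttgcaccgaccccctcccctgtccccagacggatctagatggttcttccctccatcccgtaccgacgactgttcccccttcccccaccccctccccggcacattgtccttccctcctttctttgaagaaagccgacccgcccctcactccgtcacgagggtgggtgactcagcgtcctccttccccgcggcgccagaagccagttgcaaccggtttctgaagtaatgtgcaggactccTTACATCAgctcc
SLC1A5, chr19:46784765-46785064, minus strand: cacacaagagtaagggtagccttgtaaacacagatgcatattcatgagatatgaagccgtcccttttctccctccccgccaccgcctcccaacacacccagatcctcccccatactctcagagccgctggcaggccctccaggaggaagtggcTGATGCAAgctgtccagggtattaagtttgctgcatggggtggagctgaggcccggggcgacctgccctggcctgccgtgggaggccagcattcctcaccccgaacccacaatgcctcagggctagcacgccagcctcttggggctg
SLC7A1, chr13:29595639-29595938, minus strand: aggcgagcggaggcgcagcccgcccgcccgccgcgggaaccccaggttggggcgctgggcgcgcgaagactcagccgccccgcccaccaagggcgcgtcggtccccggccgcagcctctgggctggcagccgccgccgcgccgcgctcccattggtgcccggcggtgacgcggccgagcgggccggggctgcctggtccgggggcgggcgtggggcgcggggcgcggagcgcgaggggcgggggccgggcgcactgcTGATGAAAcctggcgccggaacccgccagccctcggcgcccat
SLC38A1, chr12:46266467-46266766, minus strand: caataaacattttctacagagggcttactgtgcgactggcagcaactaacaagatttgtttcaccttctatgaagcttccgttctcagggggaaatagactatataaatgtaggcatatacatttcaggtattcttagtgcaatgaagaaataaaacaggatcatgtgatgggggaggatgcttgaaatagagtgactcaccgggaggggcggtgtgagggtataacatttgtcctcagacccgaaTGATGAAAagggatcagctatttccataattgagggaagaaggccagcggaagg
Counted from the start as 1, the match began at -7 in SLC1A4, 38 in SLC3A2, -97 in SLC1A5, 8 in SLC7A1 and -4 in SLC38A1. In SLC1A4 and SLC3A2 the core lies on the opposite strand, so it is printed there as its reverse complement, and in SLC1A4, SLC1A5, SLC3A2 and SLC38A1 the window belongs to one of several annotated starts. The match was present in members that moved in both directions, and SLC6A9, with the highest log2 fold change, had none in its window. The part of the match in these changes was not tested. The antioxidant response element TGACNNNGC, which NRF2 is known to bind, was found in 4 of the 9 members with windows. These were SLC3A2, SLC7A1, SLC7A5 and SLC1A5. It occurred in 13.3% of all windows and in 19.4% of tested genes with a window. The E-box CACGTG, bound by MYC, was found in 3 of the 9, SLC43A1, SLC7A5 and SLC1A5. It occurred in 7.26% of all windows and in 12.3% of tested genes with a window. None of the 3 motifs overlapped another in a member's window. A match is a run of letters and not a measured binding site.

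Of 10 transcription factors known to act on one or more of the members, 9 were tested, 4 (44.4%) were called higher and 0 lower by edgeR, beside 13.5% and 17.4% of all tested genes. At any fold 5 were higher and 1 lower at an adjusted p below 0.05, beside 35.3% and 34.1% of all tested genes. ATF4 mRNA had 491, 435 and 461 CPM with DMSO and 744, 720.4 and 651 CPM with NCD, a log2 fold change of 0.61 (SE 0.07, edgeR adjusted p = 7.44e-05), which was not called. Its partners and targets ATF3, DDIT3 (CHOP) and CEBPB rose, with log2 fold changes of 3.21, 2.20 and 1.39. NFE2L2, the activator of SLC7A11, had 120.5, 149 and 121 CPM with DMSO and 122, 119.8 and 144 CPM with NCD, and BACH1, which represses NRF2 targets, 41.2, 59.1 and 44.5 CPM and 44.9, 43.5 and 60.5 CPM. Both overlapped between the groups (adjusted p = 0.895 and 0.838 from edgeR). MYC, an activator of SLC7A5 and SLC1A5, had a log2 fold change of -0.89 (adjusted p = 2.2e-06 from edgeR) and was not called, and ATF5 one of 0.16 (adjusted p = 0.0974). MYCN had 0 counts in every library and was not tested.

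Among 31 other amino acid transporters of the plasma membrane, 11 were expressed highly enough to be tested, 0 were called higher and 3 (27.3%) lower by edgeR, beside 13.5% and 17.4% of all tested genes. At any fold 2 were higher and 5 lower, beside 35.3% and 34.1% of all tested genes. The median log2 fold change was 0.08. The 3 that fell were SLC6A6, the taurine carrier (-1.50, adjusted p = 2.29e-07), SLC36A4, a carrier of proline and tryptophan (-1.34, adjusted p = 8.15e-06), and SLC1A1, a glutamate and cysteine carrier (-1.12, adjusted p = 0.000963). SLC1A1 was no longer called without NCD 3 (-0.96). The light chain SLC7A6 was lower at a log2 fold change of -0.31 (adjusted p = 0.00689 from edgeR), and SLC7A7, below 1 CPM in every library, stood at 0.60 (adjusted p = 0.198). The fall of SLC7A6 depended on the scaling. It was -0.114 with library totals (edgeR adjusted p = 0.281) and -0.335 with ribosomal protein genes as reference (edgeR adjusted p = 0.156).

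Within the cell, 17 of 19 carriers of the lysosome and mitochondrion were tested, with 3 (17.6%) called higher and 2 (11.8%) lower by edgeR, near the 13.5% and 17.4% of all tested genes, and a median log2 fold change of 0.44. SLC66A1, which exports cationic amino acids from the lysosome, rose by 1.24, and SLC38A7, which exports glutamine and asparagine from it, by 1.18. The third was SLC25A18, a mitochondrial glutamate carrier with a mean below 1 CPM in both groups, named here after its value was seen. The mitochondrial aspartate and glutamate carriers SLC25A13 and SLC25A12 fell by 2.54 and 1.61 on the log2 scale. They span 202 and 216 kb, within the decile above 153 kb, whose median over all tested genes was -2.09 on the log2 scale.

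Genes that report amino acid supply to mTORC1, the kinase complex that links amino acids to growth, were called at close to the rate of all tested genes. All 38 listed genes were tested, 6 (15.8%) were called higher and 7 (18.4%) lower by edgeR, against 13.5% and 17.4% of all tested genes, and the median log2 fold change was 0.29. SESN2, a leucine sensor that holds mTORC1 back and is itself an ATF4 target, had 8.08, 7.47 and 6.63 CPM with DMSO and 43.6, 42.3 and 41.8 CPM with NCD, a log2 fold change of 2.53 (SE 0.09, edgeR adjusted p = 5.36e-08). SESN3, a relative of SESN2, and KICS2, a subunit of the KICSTOR complex, rose by 1.64 and 1.61. RPTOR, the subunit that defines mTORC1, had 52.2, 52.3 and 49.8 CPM with DMSO and 8.21, 8.38 and 7.69 CPM with NCD, a log2 fold change of -2.67 (SE 0.08, edgeR adjusted p = 2.3e-08), and it spans 422 kb. BMT2, the methionine-cycle sensor SAMTOR, and FNIP1, a partner of folliculin, fell by 1.38 and 1.36 and span 121 and 155 kb. Over all tested genes the median log2 fold change was -2.09 (quartiles -3.05 and -1.24) in the decile above 153 kb, where RPTOR and FNIP1 lie. It was -0.93 in the decile from 89.7 to 153.1 kb, where BMT2 lies.

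Genes that use the imported cystine for glutathione, or make cysteine in its place, were tested for 16 of 18 listed members, with 3 (18.8%) called higher and 1 (6.25%) lower by edgeR, beside 13.5% and 17.4% of all tested genes, and a median log2 fold change of 0.45. CHAC1, which degrades glutathione, went from 2.88 ± 0.362 CPM with DMSO to 38.6 ± 4.15 CPM with NCD (SD, n = 3), the groups lying far apart, with a log2 fold change of 3.74 (SE 0.13, edgeR adjusted p = 4.55e-08). CTH, which makes cysteine from cystathionine, rose by 3.27, from 11.8 ± 0.735 to 114 ± 7.77 CPM (SD, n = 3). CSAD, which turns cysteine sulfinate into hypotaurine, rose by 1.70. The one that fell was TXNRD1, the reductase of thioredoxin, which makes no glutathione, at 903 ± 16.6 CPM with DMSO and 369 ± 10.9 CPM with NCD (SD, n = 3), a log2 fold change of -1.29. TXNRD1 spans 134.5 kb, in the decile from 89.7 to 153.1 kb, whose median over all tested genes was -0.93 on the log2 scale. CBS, which makes the cystathionine that CTH uses, had at most 1 count in any library and was not tested.

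**Figure D5:**
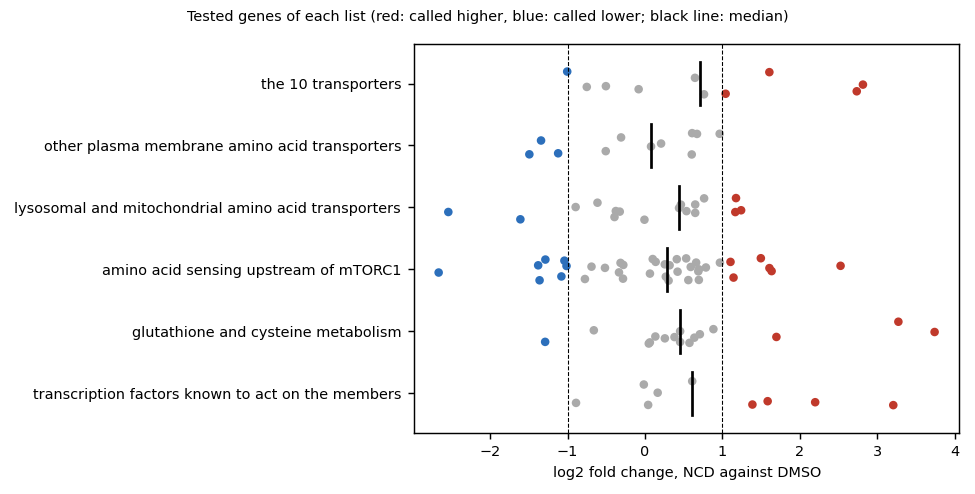
Each point is the log2 fold change of one tested gene, NCD against DMSO, in rows for the 10 transporters and the 5 lists of related genes; dashed lines mark a change of 1 and the black line the median of each row. The transporters have the highest median of the rows, at 0.70, and the lowest points are RPTOR, at -2.67 in the row of mTORC1 sensing, and SLC25A13, at -2.54 in the row of lysosomal and mitochondrial carriers.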

How the data were processed

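MDA-MB-231 cells treated with NCD or DMSO were profiled by RNA-seq, with 3 libraries per group. The authors aligned reads with HISAT2 and deposited expected counts per Ensembl gene, estimated with RSEM and not normalized. GRCh38 (hg38) is named in the submitters' processing notes. Tool versions, annotation release and strandedness are not given in the sources used here.

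In each library 25 lines without a gene identifier were skipped. Expected counts were rounded and tested with edgeR 4.0.16 in R 4.3.3 (filterByExpr, TMM, glmQLFit, glmQLFTest), with the standard error taken as the absolute log2 fold change over the square root of F. The authors tested with DESeq2 and kept genes with a log2 fold change beyond 1 or -1 and P below 0.05, and these limits were applied here to adjusted p. DESeq2 1.42.0 and voom in limma 3.58.1 served here as alternatives, beside other scalings and filters, the replicate number as a block, and leaving libraries out. Gene models came from GENCODE release 29, with 58228 of the gene identifiers and no less than 99.4% of counts. Lengths are those of the APPRIS principal transcript. Permutation tests used scipy 1.17.1. Intervals and limits for counts cover counting error only.

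The members and gene lists were chosen with earlier results of these data known. Named genes were all members, the listed transcription factors (1 of them is counted but not reported here), the light chains, and from each other list up to 3 genes per direction with the largest change among called genes whose mean reached 1 CPM, with no overlap between groups. Same-numbered libraries did not deviate together (correlations 0.216, -0.185 and 0.023), so the main fit has no block.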

Additional observations from a re-analysis of the deposited data

How the results depend on the processing

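The counts of called genes, members and listed genes stayed within 1.5 times under DESeq2, limma-voom, DESeq2 size factors in edgeR, ribosomal protein genes as reference, no low-count filter and the replicate block. With the replicate number as a block, 4 members were again called higher and 1 lower, and the light chain ratio changed by -1.23 (exact p = 0.25, the smallest 3 pairs allow). The block left 4724 called genes, 2057 higher and 2667 lower, and 6 mTORC1 sensing genes called lower in place of 7, and it changed no call of a named gene. The labels do not say whether the replicate numbers pair the libraries. With library totals 56.2% of 4973 called genes were higher, against 43.7% of 4735, 0 members were called lower, other plasma membrane carriers had 1 called higher, and mTORC1 sensing genes 4 called lower. With at least 10 counts in every library 1377 genes were called higher, of fewer genes tested. Without the fold threshold 10600 genes passed, 5392 higher and 5208 lower. By list, higher and lower, this gave 6 and 3 members, 2 and 5 other plasma membrane carriers, 9 and 7 organelle carriers, 20 and 13 mTORC1 sensing genes, 9 and 2 glutathione genes, and 5 and 1 transcription factors. The setting that left out DMSO 2 and NCD 3 together and the exon union as length were chosen after seeing the data; the first left 0 members called lower.

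When single libraries were left out, the called genes ranged from 4653 to 5046, the members called higher from 3 (without NCD 1) to 4, those called lower from 0 (without DMSO 2 or NCD 2) to 1, and the light chain log2 ratio from -1.28 to -1.19. That ratio was -1.39 with counts not divided by length. SLC38A2 turned to 0.12 with library totals and ranged from -0.216 (without NCD 3) to -0.024 without single libraries. NFE2L2 turned to 0.18 with library totals and ranged from -0.119 to 0.082 without single libraries, and BACH1 ranged from -0.144 to 0.202. The change in the share of SLC7A5 was 3.48 points with counts and 1.01 points with the exon union, and that of SLC43A1, 0.0036 points as reported, was 0.116 and 0.0866 points with these and ranged from -0.00173 to 0.0125 points without single libraries. With counts not divided by length the share changed by -4.86 points for SLC7A11, -4.80 for SLC38A2 and 5.65 for SLC1A5, and with the exon union SLC1A5 gained 6.58. The share of SLC3A2 gained 15.7 points with counts not divided by length and 14.2 with the exon union. The cause of these changes was not tested, and none of the genes whose sign turned was called. At this depth SLC7A8 and SLC7A10 could not be measured.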
